A study of Mus musculus with 6 samples.

Results

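The vessel genes examined here are 34 genes of blood and lymphatic endothelium and of the factors that act on it, out of 22180 genes tested. They were given as a fixed list of symbols. Each was read from the probe set that carries that symbol alone and, where a gene had more than 1 such probe set, from the one with the highest mean over all arrays. All 34 were found, and 32 had a mean level above the median of all genes (Prox1 and Icam2 did not). The study hybridised total RNA of whole mouse lung buds, dissected at E12.5, to 6 microarrays. In the control group were 3 samples of genotype Shh cre/+, with Cre recombinase expressed from 1 allele of Shh. In the mutant group were 3 samples of genotype Fzd2Flox/Flox; Shh cre/+, which carry that Cre and floxed Fzd2 on both chromosomes, while the labels name no Fzd2 allele for the controls. Shh-driven Cre is active in lung epithelium, so the Wnt receptor Fzd2 was targeted there and not in the vessels. Samples are labelled biological replicates, and the sources used here do not say whether lungs were pooled. Values are log2 expression values, and a difference is mutant minus control in log2 units, with limma's standard error (SE) and an adjusted p over all genes tested.

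Blood vessels form in the mesenchyme around the branching airways. Vascular endothelial growth factor (VEGF) from the epithelium and mesenchyme signals to endothelial cells through the receptor encoded by Kdr, while angiopoietins act through the Tie receptors and stabilise or loosen the vessel wall. Lymphatic endothelium is specified from veins by the homeobox factor Prox1 and grows toward Vegfc, the ligand of the receptor encoded by Flt4. Endothelial identity is kept by ETS factors such as Erg and Fli1 and by Sox7, Sox17 and Sox18.

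The arrays differed in their levels of genes of other organs. In mutant replicate 1, all 6 measured cardiac muscle genes were at their highest, with a list mean of 9.85 against 8.24 to 8.31 on the other arrays. Mutant replicate 2 had the highest value of all 7 adipose tissue genes (list mean 10.8 against 7.01 to 7.68), and control replicate 1 that of all 8 adult small intestine genes (9.66 against 6.17 to 6.42). Control replicate 2 was the array with no Y-linked signal. Fzd2 had a log2 difference of -0.29 (SE 0.15, adjusted p = 0.475) with mutant replicate 1 inside the control range, so it is a weak check of the labels. In limma's fit, 14 genes (0.0631%) passed an adjusted p of 0.05, 4 higher and 10 lower in mutants (2 and 10 after a further quantile normalization).

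None of the 34 vessel genes passed that threshold (0 by limma, with 1 at an unadjusted p under 0.05, where 12.49% of all genes were), and the lowest adjusted p among them was 0.391. Of the 34, 18 had a lower and 16 a higher mean in mutant lungs (52.9% lower, against 45.2% of all genes). Their median difference was -0.0078, beside 0.011 over all genes. Differences ran from -0.18 for Prox1 to 0.14 for Vwf, and 29 of 34 were smaller than 0.1 in size (85.3%, against 67.9% of all genes). A missed threshold does not show equal levels, so the 95% intervals of the differences are the better guide to size. In 24 members the whole interval lay within 0.25 of 0 (70.6%, against 62.2% of all genes). Leaving out a single array changed the sign or moved the difference by over 1.5 times in 32 of 34 members (Egfl7 and Flt1 were the others). The outermost bounds over the list were -0.40 (Prox1) and 0.36 (Vwf). Because whole lungs were measured, fewer endothelial cells and less RNA per endothelial cell cannot be told apart in any of these values.

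**Figure D1:**
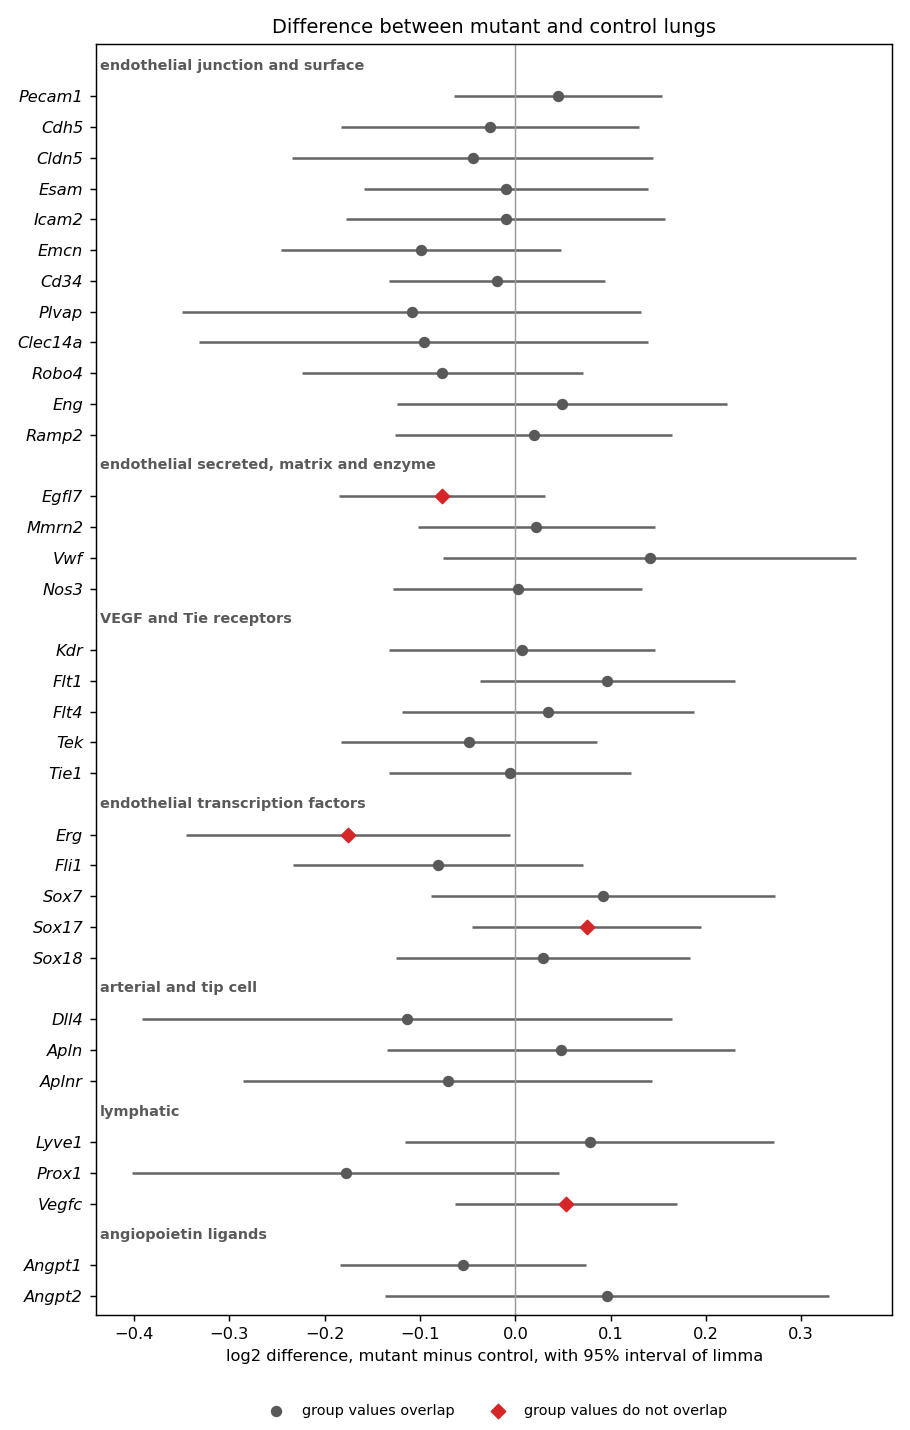
Log2 difference between the 3 mutant and the 3 control arrays (x axis) for each of the 34 vessel genes (y axis, grouped by role). Points are differences and bars are limma's 95% intervals. Red diamonds mark the 4 genes whose mutant and control values did not overlap. The bar of Erg is the one that ends below 0, at -0.0058, and none of the genes passed an adjusted p of 0.05.

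In 4 of 34 members the mutant and control values did not overlap, where 19.4% of all genes showed this. Erg and Egfl7 were lower (8.83% of all genes), and Sox17 and Vegfc were higher (10.6% of all genes). In 33 of 34 members the range within a group was wider than the difference between the groups (97.1%, against 89.3% of all genes).

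Among the 12 junction and surface genes of endothelium, 9 had lower and 3 higher means, with differences from -0.11 to 0.049, and no call (0 by limma, with 0 at an unadjusted p under 0.05). Cdh5, which encodes the adherens junction protein VE-cadherin, stood at 11.38, 11.56 and 11.43 in the controls and 11.52, 11.39 and 11.38 in the mutants. The groups overlapped and the difference was -0.026 (SE 0.067), with an interval of -0.18 to 0.13. Pecam1, the adhesion molecule CD31 on all endothelium, stood at 10.04, 10.07 and 10.08 in controls and 10.15, 10.09 and 10.08 in mutants. Its difference was 0.045 (SE 0.047), which leaves the mutant level between 95.6% and 111% of the control level at 95% confidence. The lowest p values of the group belonged to Emcn, a sialomucin of capillaries and veins, and Robo4, an endothelial roundabout receptor that limits vessel leak.

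Emcn measured 11.04, 11.05 and 10.98 in controls and 11.02, 10.81 and 10.94 in mutants. Mutant replicate 2 was the low array, and the difference of -0.099 (SE 0.063, adjusted p = 0.542) did not exceed the spread. Without mutant replicate 2 the difference of Emcn was -0.044. Robo4 had log2 values of 8.69, 8.64 and 8.66 in controls and of 8.71, 8.50 and 8.55 in mutants. Here mutant replicate 1 lay above all controls while the other mutants lay below them (difference -0.076, SE 0.063, adjusted p = 0.638). The difference of Robo4 was -0.14 without mutant replicate 1 and -0.034 without mutant replicate 2. Plvap, which forms the diaphragms of fenestrae and caveolae, differed by -0.11 (SE 0.10) and was 8.25 in mutant replicate 2 against 8.47 or more elsewhere. The tight junction gene Cldn5 (-0.045), the junction molecule genes Esam (-0.0098) and Icam2 (-0.010), the sialomucin gene Cd34 (-0.019) and the lectin gene Clec14a (-0.096) also had lower means. Higher means were found for Eng, a coreceptor of the transforming growth factor beta family (0.049), and for Ramp2, the partner of the adrenomedullin receptor (0.019, but -0.016 after centring on array medians).

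Of 4 endothelial secreted, matrix and enzyme genes, 1 had a lower and 3 had higher means (1 after centring on array medians). Egfl7, a secreted angiogenic factor, was at 10.40, 10.42 and 10.46 in controls and 10.31, 10.36 and 10.38 in mutants. All mutants lay below all controls, but by a difference of -0.077 (SE 0.046, adjusted p = 0.524). Vwf, which encodes the von Willebrand clotting factor stored in endothelial granules, was at 7.76, 7.81 and 7.62 in controls and 7.97, 7.97 and 7.67 in mutants. Mutant replicates 1 and 2 stood above the controls and mutant replicate 3 stood among them (difference 0.14, SE 0.093, adjusted p = 0.555). Without mutant replicate 3 the difference of Vwf was 0.24 (adjusted p = 0.404). The endothelial nitric oxide synthase gene Nos3 (0.0024) and the matrix gene Mmrn2 (0.022) had smaller differences. In Nos3 the 3 controls were 8.72, 8.72 and 8.73, with the mutants at 8.82, 8.66 and 8.69.

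Of the 5 VEGF and Tie receptor genes, 3 had higher and 2 lower means (1 higher after centring each array on its median), and 0 passed by limma, with 0 at an unadjusted p under 0.05. Kdr, the main signalling receptor for VEGF, was at 10.37, 10.38 and 10.42 in controls and 10.50, 10.32 and 10.38 in mutants. Its difference was 0.0072 (SE 0.060), with an interval that puts mutants at 91.2% to 111% of controls. Flt1, a receptor that mostly traps VEGF, was at 8.53, 8.62 and 8.54 in controls and 8.70, 8.70 and 8.57 in mutants. Mutant replicates 1 and 2 were above the controls, mutant replicate 3 was not, and the difference was 0.097 (SE 0.057, adjusted p = 0.516). Flt4, the receptor for Vegfc, differed by 0.034 (SE 0.066). Tek, the angiopoietin receptor, was at 10.06, 10.19 and 10.07 in controls and 10.12, 10.06 and 10.00 in mutants, so its values overlapped (difference -0.049, SE 0.058, adjusted p = 0.746), and without control replicate 2 the difference was -0.0083. Tie1, a related receptor that modulates Tek, differed by -0.0058 (SE 0.054).

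Endothelial transcription factors held the smallest p of the list. Erg was at 9.27, 9.48 and 9.26 in controls and 9.22, 9.18 and 9.09 in mutants. The mutants were all lower than the controls, with mutant replicate 1 closest to them and control replicate 2 well above the other controls. The difference was -0.18 (SE 0.073, 88.5% of control, unadjusted p = 0.0443), and limma's adjusted p of 0.391 did not reach the threshold. An exact two-sided permutation test gave p = 0.1 for Erg, the smallest that 3 arrays against 3 allow. Without control replicate 2 the difference was -0.10. Over the alternatives the adjusted p of Erg ran from 0.299 to 0.693. Fli1, the nearest relative of Erg, differed by -0.081 (SE 0.065), with overlapping values.

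The 3 Sox factors of this group had higher means. Sox18 changed sign in 4 of 21 alternatives and Sox7 in 1. For Sox18 these included centring each array on its median (-0.0065) and leaving out control replicate 1 (-0.035). Sox17, a factor of arterial endothelium, was at 8.29, 8.37 and 8.37 in controls and 8.47, 8.39 and 8.39 in mutants. Its mutant values lay just above the controls, by 0.075 (SE 0.052, adjusted p = 0.574). Sox7 differed by 0.092 (SE 0.077) and stood at 8.63 in mutant replicate 1 against 8.35 to 8.39 on the other 5 arrays, so without that array its difference was 0.0048. Sox18, which lies upstream of Prox1 in lymphatic specification, differed by 0.029 (SE 0.066).

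Promoter sequences are shown for the non-overlapping members that the RefSeq promoter table holds, since ETS factors such as Erg bind endothelial promoters at a core of GGAA. Of 34 members, 17 were matched by symbol, with 22 windows of 250 bases upstream of an annotated start (RefSeq, GRCm38.p6). For Egfl7 the most upstream of 3 starts is given, on the plus strand at chr2:26580833-26581082, which is also the one with the most copies of AGGAAG. For Erg the window is that of the third of 3 starts, on the minus strand at chr16:95459349-95459598, chosen because it is the one of the 3 that holds AGGAAG. The window of Vegfc, which has 1 start in the table, is on the plus strand at chr8:54077282-54077531. Each is written 5′ to 3′ along the gene and ends at the base before the start, with AGGAAG or its reverse complement CTTCCT in capitals.
Egfl7: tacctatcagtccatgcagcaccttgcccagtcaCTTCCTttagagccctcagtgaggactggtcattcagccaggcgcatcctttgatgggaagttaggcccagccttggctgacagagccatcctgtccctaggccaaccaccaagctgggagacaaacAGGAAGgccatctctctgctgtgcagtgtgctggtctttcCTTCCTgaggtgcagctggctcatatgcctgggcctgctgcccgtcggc
Erg: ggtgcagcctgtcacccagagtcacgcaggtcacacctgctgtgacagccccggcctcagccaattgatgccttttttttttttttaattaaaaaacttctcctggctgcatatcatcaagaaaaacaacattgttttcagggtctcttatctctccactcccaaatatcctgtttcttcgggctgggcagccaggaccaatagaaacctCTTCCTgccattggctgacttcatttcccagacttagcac
Vegfc: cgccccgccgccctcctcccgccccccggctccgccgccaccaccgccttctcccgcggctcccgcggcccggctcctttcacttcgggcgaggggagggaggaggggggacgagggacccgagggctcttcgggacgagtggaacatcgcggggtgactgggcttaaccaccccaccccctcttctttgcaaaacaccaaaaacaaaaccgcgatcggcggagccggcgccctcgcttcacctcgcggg
The Egfl7 window held 3 copies of AGGAAG on either strand, the Erg window 1 and the Vegfc window 0. Searched on both strands, AGGAAG was in 10 of the 22 member windows (45.5%) and in 29.5% of all 32851 windows of the table. CAGGAAG, which contains it, was in 7 of 22 (31.8%) against 10.8% of all windows. The bare core GGAA, contained in both, was in 90.9% against 93.4%. These are counts of letters and not binding sites, and windows of 1 gene are not independent. Counted by gene, AGGAAG was in 9 of 17 members against 32.3% of all genes, and GGAA in 16 of 17 against 94.2%. The members were listed as endothelial genes, and the counts do not compare mutants with controls. The probe sets do not show which start was used.

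**Figure D2:**
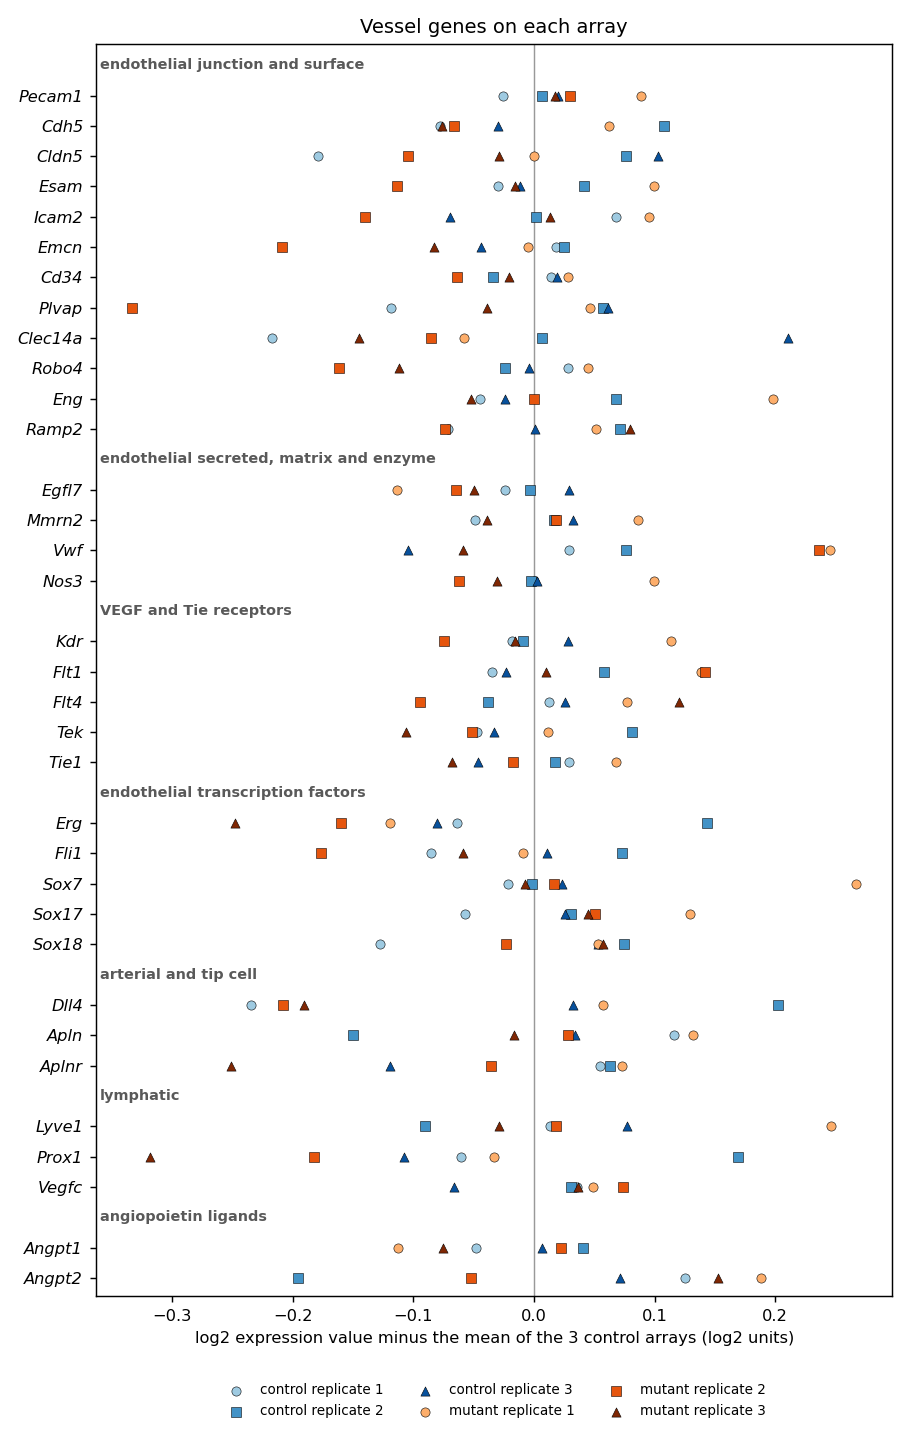
Log2 value of each vessel gene on each array, as its distance from the mean of the 3 control arrays (x axis, log2 units), with genes on the y axis grouped by role. Blue symbols are control and orange to brown symbols mutant arrays. In 17 of 34 genes the highest symbol is mutant replicate 1, and in 33 of 34 the symbols of 1 group spread more widely than the difference between the group means.

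Of 3 arterial and tip cell genes, Dll4, the Notch ligand of tip cells and arteries, had the lowest p. It measured 8.30, 8.73 and 8.56 in controls and 8.59, 8.32 and 8.34 in mutants. Control replicate 1 sat as low as the low mutants, and the difference of -0.11 (SE 0.12, adjusted p = 0.713) had a wide interval of -0.39 to 0.16. It was -0.23 without control replicate 1 and -0.013 without control replicate 2. Aplnr, the apelin receptor of venous and sprouting endothelium, was at 10.96, 10.97 and 10.79 in controls and 10.98, 10.87 and 10.65 in mutants (difference -0.071, SE 0.092, adjusted p = 0.768). The lowest Aplnr values were those of the arrays numbered 3 in either group. Apln, the ligand made by tip cells, differed by 0.048 (SE 0.078).

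The lymphatic genes showed no common direction. Prox1, the lymphatic master factor, which is also made in heart muscle and neuroendocrine cells, was at 7.37, 7.60 and 7.32 in controls and 7.40, 7.25 and 7.11 in mutants. Mutant replicate 1 overlapped the controls and mutant replicates 2 and 3 lay below them. The difference was -0.18 (SE 0.096, adjusted p = 0.482), and without mutant replicate 1 it was -0.25 (unadjusted p = 0.038, adjusted p = 0.380). Lyve1, the hyaluronan receptor of lymphatic vessels, which some macrophages also carry, differed by 0.078 (SE 0.083) and was highest in mutant replicate 1, at 10.40 against 10.06 to 10.23 elsewhere. Of the 12 measured leukocyte genes, 8 had higher means in mutants, and their part in the Lyve1 value was not tested. Vegfc was at 9.19, 9.18 and 9.08 in controls and 9.20, 9.22 and 9.19 in mutants. The mutants lay just above the first and second controls and further above control replicate 3, with a difference of 0.053 (SE 0.050, adjusted p = 0.676) that was 0.020 without that control.

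The 2 angiopoietin ligands went opposite ways by less than their spread. Angpt1, the activating ligand of Tek from mesenchyme and mural cells, was at 9.20, 9.29 and 9.25 in controls and 9.13, 9.27 and 9.17 in mutants (difference -0.055, SE 0.055, adjusted p = 0.698). Angpt2, the ligand that destabilises vessels, was at 8.01, 7.69 and 7.96 in controls and 8.08, 7.84 and 8.04 in mutants. Control replicate 2 was the low array of Angpt2, and the difference was 0.096 (SE 0.10, adjusted p = 0.710).

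Vessel genes shared a pattern across arrays that split the mutant group. Mutant replicate 1 held the highest value of 17 of 34 members, where 16.9% of all genes were highest on it. Mutant replicate 2 held the lowest value of 11 and control replicate 1 that of 10, with 20.7% and 13.7% of all genes lowest there. Mutant replicate 1 exceeded mutant replicate 2 in 30 of 34 members, against 52.5% of all genes, by a median of 0.12. The mean over the 34 members was 9.18, 9.24 and 9.22 in controls (SD 0.031) and 9.28, 9.16 and 9.17 in mutants (SD 0.069). Mutant replicate 1 thus lay above all controls and mutant replicates 2 and 3 below them. In 18 of 34 members, mutant replicates 2 and 3 were both below the control mean (52.9%, against 31.2% of all genes). The difference of the mean over the 34 members was -0.012, a small part of the 0.12 between mutant replicates 1 and 2.

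**Figure D3:**
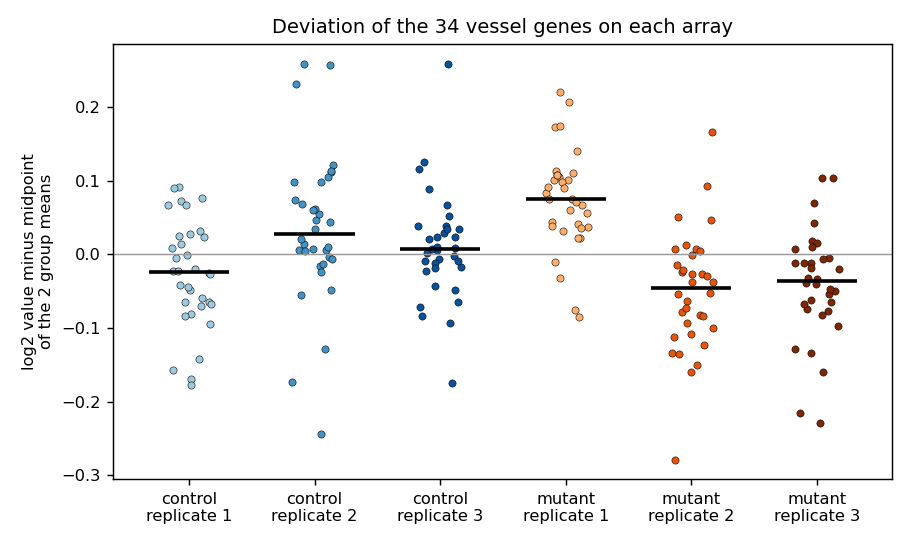
Deviation of each of the 34 vessel genes (points) from the midpoint of its 2 group means, in log2 units (y axis), on each array (x axis). Black lines are medians over the genes, and points are spread sideways for visibility. The median is highest in mutant replicate 1 (0.075) and lowest in mutant replicate 2 (-0.045), both of the mutant group.

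The array with the highest median of vessel gene values was also the one with the highest cardiac muscle genes (list mean 9.85). Mutant replicate 2, with the adipose genes, held the lowest value of 11 members, and control replicate 1, with the intestine genes, that of 10. The part of the sources of these other-organ genes in the vessel gene values was not tested. Without mutant replicate 1, 23 of 34 members had lower means (67.6%, against 46.2% of all genes) and the median was -0.044, with 0 called by limma and 3 (Erg, Prox1 and Robo4) at an unadjusted p under 0.05. Without mutant replicate 2, 13 of 34 had lower means (38.2%, against 44.3% of all genes) and the median was 0.029. With control replicate 1 and both of these mutants left out, mutant replicate 3 against the remaining 2 controls gave 26 of 34 lower (76.5%, against 45.3% of all genes) and a median of -0.049. That fit rests on a single mutant array, assumed to vary like the controls, called 0 members, and had Dll4, Prox1 and Erg at an unadjusted p under 0.05. The sign of the list's median also turned without control replicate 3 (0.0053, 16 lower) and with array weights (0.0028, 16 lower). Centring each array on its median, which moves every gene by the same amount, gave 24 lower (70.6%, against 59.6% of all genes), and a further quantile normalization gave 15 (44.1%, against 50% of all genes).

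A second probe set named 5 of the members, alone or with another gene. In Angpt1 it differed by 0.059 against -0.055 for the one used, at a level near 6.1, so the probe sets went opposite ways within their spread. For Dll4, a probe set shared with Gm14207 differed by 0.14 (SE 0.11) against -0.11. The probe set shared by Ramp2 and Vps25 differed by -0.066 against 0.019. Those shared by Egfl7 and Mir126a (-0.14, SE 0.10) and by Cd34 and Gm16897 (-0.014) had the same sign as the ones used. Pecam1 and Icam2, and likewise Robo4 and Esam, stand close together in the RefSeq gene order, with 2 other protein-coding genes between them.

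Beyond the members, 76 further genes of vessel pathways were listed and 74 were measured. None passed (0 by limma), with 49 higher and 25 lower means (40 higher after centring on array medians) and a median difference of 0.049 (0.013 after centring). Over all genes, 45.2% had lower means (59.6% after centring). Of the 74, 13 were at an unadjusted p under 0.05 (17.6%, against 12.49% of all genes). With the dimmer 50% of genes left out, 1 of them passed, the forkhead gene Foxc2, needed for lymphatic valves and also made in mesenchyme. The mean of Foxc2 over all arrays ranked at percentile 50.8, so it cleared that filter narrowly, through its higher mutant values. That call is therefore not independent of its difference.

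Foxc2 stood at 7.59, 7.59 and 7.64 in controls and 7.96, 7.94 and 7.91 in mutants. The groups were well apart, with a difference of 0.33 (SE 0.046). The adjusted p of Foxc2 by limma was 0.0778 over all genes, 0.12 after centring on array medians and 0.0286 with that filter. Among 6 VEGF ligand and neuropilin genes 5 had higher means (4 after centring on array medians). Vegfd, a lymphatic growth factor that lung mesenchyme makes, was at 8.56, 8.35 and 8.86 in controls and 9.14, 9.02 and 8.99 in mutants. All mutants were above all controls, and the difference of 0.46 (SE 0.12) had an adjusted p of 0.248. Vegfb, a ligand of Flt1, was at 10.23, 10.23 and 10.21 in controls and 10.48, 10.44 and 10.34 in mutants (difference 0.20, SE 0.053, adjusted p = 0.263). Pgf, also a ligand of Flt1, differed by -0.10 (SE 0.049).

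Of 10 vascular Notch and ephrin genes, 6 had higher means (4 after centring on array medians) and 0 passed by limma. At an unadjusted p under 0.05 were 3 of the 10, where 12.49% of all genes were. These were the endothelial receptor gene Notch4 (0.16, SE 0.045, adjusted p = 0.266), its feedback target Nrarp (0.13, SE 0.046) and the arterial effector Hey2 (0.17, SE 0.065). Notch4 was at 8.63, 8.62 and 8.61 in controls and 8.76, 8.77 and 8.82 in mutants. The 4 genes with lower means included Jag2 (-0.18, SE 0.084), whose mutants all lay below the controls, and Notch1 (-0.18, SE 0.077). Of 28 measured genes of endothelial surface and signalling, 19 had higher means (16 after centring) and 0 passed by limma (3 at an unadjusted p under 0.05). Cxcl12, a chemokine of the mesenchyme, had a difference of 0.26 (SE 0.064, adjusted p = 0.215), Thbd, the anticoagulant thrombomodulin, one of 0.29 (SE 0.090), and the endothelial adhesion receptor gene Adgrl4 one of -0.21 (SE 0.065). Among 15 other transcription factors of endothelium and blood vessels, 8 had higher means (6 after centring). Etv2, the earliest endothelial ETS factor, differed by 0.18 (SE 0.052, adjusted p = 0.290) and Hhex by 0.16 (SE 0.078).

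Of 7 further lymphatic genes 6 had higher means, 0 passed by limma and 2 were at an unadjusted p under 0.05. Pdpn, the podoplanin of lymphatic endothelium, mesothelium and epithelium, was at 8.58, 8.49 and 8.80 in controls and 8.75, 8.92 and 9.09 in mutants (difference 0.30, SE 0.11, adjusted p = 0.336). Itga9, an integrin subunit of lymphatic valves and smooth muscle, differed by -0.22 (SE 0.077). All 7 mesothelium genes had higher means (list mean 8.83 in controls and 9.03 in mutants), and their part in the Pdpn value was not tested. Of 8 pericyte genes, which mark the mural cells of capillaries, 5 had higher means (4 after centring on array medians). Of these 8, 0 passed by limma (1 at an unadjusted p under 0.05). That 1 was Kcnj8, a potassium channel subunit (0.34, SE 0.11, adjusted p = 0.308). Rgs5, a regulator of G protein signalling in pericytes, differed by 0.24 (SE 0.12), and by 0.14 (unadjusted p = 0.293) with its probe sets averaged.

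**Figure D4:**
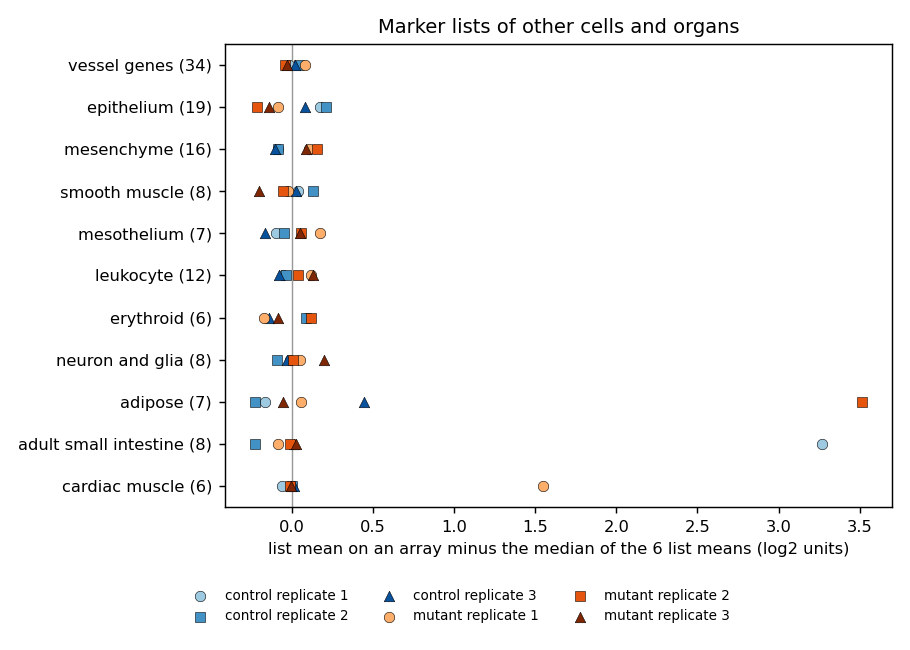
Mean log2 value of the vessel genes and of marker lists of other cells and organs (y axis, number of measured genes in brackets) on each array, as the distance from the median of the 6 arrays (x axis, log2 units). The adipose, adult small intestine and cardiac muscle means each stand far out on a single array, and the epithelium means of the mutants all lie below those of the controls.

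The vessel genes may be set beside the other lung compartments on the same arrays. All 19 epithelial genes had lower means in mutants (median -0.29, 1 called), with list means of 9.60, 9.64 and 9.51 in controls and 9.35, 9.21 and 9.29 in mutants. Of 16 mesenchyme genes, 10 had higher means (median 0.18, 1 called) and 6 lower, among them Tbx5 (-0.093), Tcf21 (-0.10) and Foxf1 (-0.055). Of 12 leukocyte genes, 8 had higher and 4 lower means (median 0.16, 0 called by limma, with 4 at an unadjusted p under 0.05). Of 8 smooth muscle genes, 6 had lower means (median -0.12, 0 called by limma, with 4 at an unadjusted p under 0.05), with list means of 9.79, 9.88 and 9.77 in controls and 9.73, 9.69 and 9.55 in mutants. The means of the vessel list overlapped between the groups. Those of the 6 measured erythroid genes overlapped too (8.698, 8.693 and 8.465 in controls and 8.436, 8.723 and 8.518 in mutants). List means of epithelium and smooth muscle were lower on every mutant array, and those of mesenchyme, mesothelium, leukocyte and neural genes were higher. Not every gene of the smooth muscle, mesenchyme, leukocyte and neural lists went the way of its list mean. Whether the vessel list differed from these lists was not tested, and the part of the lower epithelial values in them was not tested.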

How the data were processed

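For 41345 probe sets on 6 arrays the authors deposited log2 expression values. The submitters' processing notes name oligo and RMA, and their versions, the probe set level, filters and genome build are not given in those notes or the labels. Values between 3.55 and 14.04, with array medians from 7.29 to 7.32, are of a log2 scale. RMA brings arrays to a common distribution, so only changes relative to other genes can be seen. Each array used 100 ng of total RNA, per the labels, and the number of arrays limits the precision.

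Of the probe sets, 23521 carried 1 symbol, 1814 several and 16010 were unnamed here. The group comparison used limma 3.58.1 (R 4.3.3, lmFit and eBayes, two-sided, Benjamini-Hochberg over 22180 genes) and was run on simulated data. Noise was independent between genes there, and the planted changes were larger than any member difference. The simulation therefore does not show whether changes of the size seen in the members would be found. Members and lists were chosen with earlier results of these data known, so list counts carry no test. All members are named, with array values for the 2 lowest p values per role, for non-overlapping members and for a few others picked after their values were seen (Cdh5, Pecam1, Nos3 and Kdr, and single arrays of Plvap, Sox7 and Lyve1). Of the other lists, up to 3 genes with the smallest p are named, with array values for some. Jag2, Notch1, Tbx5, Tcf21 and Foxf1 are named besides, for their lower means. Alternatives covered normalization, filters, probe sets, variance models, weights, block, covariates and arrays left out. Same-numbered arrays correlated at -0.045, -0.061 and 0.074 in their deviations from group means. These values show no clear pairing by number but cannot exclude it with 3 arrays a group, so the arrays were treated as unpaired. Figures used matplotlib 3.10.9.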

Additional observations from a re-analysis of the deposited data

How the results depend on the processing

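No vessel gene passed an adjusted p of 0.05 under any setting run (0 by limma in each, with 0 to 3 at an unadjusted p under 0.05), and 11 of 34 kept their sign in all of them. The count of genes called over the whole array was less steady than 14: it was 24 with arrays centred on their medians, 25 and 50 with the 30th and 50th percentile filters, 26 with trend and 26 with robust variances, 57 at an adjusted p under 0.10, and 0 with the Y-linked or the cardiac muscle mean as a covariate, with both arrays that held intestine or adipose genes left out, or without any single array (0 to 0). Only control replicate 2 stood apart in the Y-linked mean, and only mutant replicate 1 in the cardiac muscle mean. Those covariate fits therefore come close to leaving that array out and are not separate checks. The replicate block also gave 0 genes, and it called no vessel gene. Whether the numbers pair the arrays is not known, and of the controls only replicate 3 correlated best with the mutant of its own number. Pathway genes called went from 0 to 1 with the 50th percentile filter, which that gene, Foxc2, cleared narrowly. Second probe sets with the same sign went from 2 of 5 to 1 after a further quantile normalization and with both arrays left out, and ranged from 1 to 3 without single arrays. Sign changes, all in uncalled genes, were as follows, and the cause was not tested. After a further quantile normalization Esam was 0.012, Cd34 0.0021 and Tie1 0.012. With arrays centred on their medians Ramp2 was -0.016, Mmrn2 -0.014, Nos3 -0.033, Kdr -0.028, Flt4 -0.0012 and Sox18 -0.0065. With a gene's probe sets averaged Angpt1 was 0.0019, and with array weights Esam was 0.00081 and Icam2 0.015. With the Y-linked mean as a covariate Cdh5 was 0.024, Esam 0.0100, Tie1 0.0027 and Apln -0.022. With both arrays left out Esam was 0.027, Icam2 0.088, Cd34 0.010, Mmrn2 -0.00069, Tie1 0.015 and Sox18 -0.0086. With all 3 arrays that held genes of another organ left out, a setting added after seeing the data, Icam2 was 0.047, Eng -0.074, Mmrn2 -0.063, Vwf -0.044, Nos3 -0.031, Kdr -0.025, Flt1 -0.0074, Sox7 -0.018, Sox18 -0.0068 and Lyve1 -0.023. With the cardiac muscle mean as a covariate, also added later, 23 members were lower with a median of -0.044, 3 were at an unadjusted p under 0.05, and Eng was -0.027, Mmrn2 -0.012, Nos3 -0.047, Kdr -0.047 and Lyve1 -0.0064. Without single arrays the differences ran from -0.071 to 0.028 for Cdh5, -0.13 to 0.0070 for Cldn5, -0.065 to 0.042 for Esam, -0.063 to 0.054 for Icam2, -0.042 to 0.0034 for Cd34, -0.19 to 0.0038 for Plvap, -0.20 to 0.0090 for Clec14a, -0.026 to 0.099 for Eng, -0.017 to 0.066 for Ramp2, -0.010 to 0.052 for Mmrn2, -0.046 to 0.034 for Nos3, -0.046 to 0.049 for Kdr, -0.0088 to 0.099 for Flt4, -0.043 to 0.025 for Tie1, -0.035 to 0.066 for Sox18, -0.027 to 0.11 for Apln, -0.14 to 0.019 for Aplnr, -0.0058 to 0.13 for Lyve1 and -0.0017 to 0.17 for Angpt2. Members that kept their sign ran from 0.023 to 0.059 for Pecam1, -0.15 to -0.044 for Emcn, -0.14 to -0.034 for Robo4, 0.089 to 0.24 for Vwf, -0.079 to -0.0083 for Tek, -0.22 to -0.10 for Erg, -0.12 to -0.034 for Fli1, 0.0048 to 0.14 for Sox7, 0.046 to 0.090 for Sox17, -0.23 to -0.013 for Dll4, -0.25 to -0.094 for Prox1, 0.020 to 0.071 for Vegfc and -0.094 to -0.026 for Angpt1. The median standard error over the members was 0.0655.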
